A study of Mus musculus with 12 samples.

Results

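The hypoxia-inducible factors and a group of their target genes were examined in mouse kidney RNA-seq libraries. The group holds 10 genes, chosen by symbol, out of 24421 gene symbols in the count and FPKM tables, and all 10 were found. They are Hif1a and Epas1, which encode the oxygen-sensitive alpha subunits, Egln1 and Egln3, which encode 2 of the prolyl hydroxylases that act on them, and the targets Vegfa, Epo, Adm, Bnip3, Ankrd37 and Ndrg1. The files list 34600 transcripts, and each gene was read from its transcript with the highest total count. The libraries came from kidneys of 12 male mice aged 6 weeks, 3 in each of 4 groups, of strain C57BL/6 by the labels and of C57BL/6J background per the study's methods. WT baseline and Tet2-/- baseline mice were healthy controls. WT IR and Tet2-/- IR mice had undergone renal ischemia-reperfusion (IR), which per the study's methods was a 60 min clamp of the right renal pedicle, removal of the left kidney and collection at 24 h. Tet2 encodes an enzyme that oxidises methylated cytosine, and per the methods the mice descended from Tet2+/- breeders, with no deletion limited to a kidney cell type described. The baseline mice had no operation, so surgery, loss of the other kidney and ischemia cannot be told apart in any IR difference.

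In cells with enough oxygen, EGLN enzymes hydroxylate the alpha subunits, which are then bound by the VHL ubiquitin ligase and degraded. When oxygen falls, the alpha subunits persist, pair with ARNT and bind short DNA elements near target genes for glycolysis, vessel growth, mitochondrial turnover and red blood cell production. Much of this control acts on the protein, so a transcript level of Hif1a or Epas1 is not a measure of factor activity. In kidney, HIF1A is known mainly from tubule cells, and EPAS1, also called HIF2A, from endothelial and interstitial cells, including the fibroblasts that make erythropoietin.

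The windows of 250 bases before the used transcript start were read from mm9 for all 10 genes and searched for the core of the hypoxia response element, ACGTG or GCGTG, on both strands. The letters CACGTG hold ACGTG on both strands and count as 2 overlapping matches. At least 1 core was found for 8 of the 10 genes, and in 43.3% of such windows over the genes searched (10287 of 23753). Not every gene of the files was searched. The windows of the 5 genes that differed in at least 1 comparison are printed 5′ to 3′ on the strand of the gene, with the cores in capitals as they read on that strand, so that CACGT and CACGC mark cores on the opposite strand.
Hif1a, chr12:75008604-75008853, plus strand: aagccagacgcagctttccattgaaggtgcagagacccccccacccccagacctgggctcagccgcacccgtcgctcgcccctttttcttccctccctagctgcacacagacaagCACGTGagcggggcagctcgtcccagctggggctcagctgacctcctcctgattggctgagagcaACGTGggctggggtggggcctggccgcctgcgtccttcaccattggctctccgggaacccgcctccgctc
Egln1, chr8:127473155-127473404, minus strand: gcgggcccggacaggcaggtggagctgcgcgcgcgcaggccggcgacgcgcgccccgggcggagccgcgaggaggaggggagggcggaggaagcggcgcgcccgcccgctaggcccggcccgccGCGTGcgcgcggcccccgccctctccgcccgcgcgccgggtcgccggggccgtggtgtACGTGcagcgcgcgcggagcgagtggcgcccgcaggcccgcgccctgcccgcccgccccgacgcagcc
Vegfa, chr17:46169327-46169576, minus strand: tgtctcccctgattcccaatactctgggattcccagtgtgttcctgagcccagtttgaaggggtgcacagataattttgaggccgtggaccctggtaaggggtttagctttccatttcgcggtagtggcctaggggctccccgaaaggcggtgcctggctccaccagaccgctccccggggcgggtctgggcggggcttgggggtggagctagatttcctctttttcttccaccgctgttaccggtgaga
Adm, chr7:117770933-117771182, plus strand: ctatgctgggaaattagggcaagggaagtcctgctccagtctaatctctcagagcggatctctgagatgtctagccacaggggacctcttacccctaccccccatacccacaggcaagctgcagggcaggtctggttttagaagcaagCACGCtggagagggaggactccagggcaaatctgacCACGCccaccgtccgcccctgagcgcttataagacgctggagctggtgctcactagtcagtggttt
Bnip3, chr7:146101190-146101439, minus strand: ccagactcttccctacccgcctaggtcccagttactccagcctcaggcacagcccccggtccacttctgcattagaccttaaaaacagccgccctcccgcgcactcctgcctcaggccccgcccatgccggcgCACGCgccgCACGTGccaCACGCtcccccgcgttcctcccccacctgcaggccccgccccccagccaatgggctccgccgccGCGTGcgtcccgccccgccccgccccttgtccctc
Hif1a held 3 core matches, Egln1 2, Adm 2 and Bnip3 5, while the Vegfa and Epas1 windows held none. A match is a run of letters and not a measured binding site, and no match says only that these letters are not in this window. The Hif1a window lies within the span of a longer deposited Hif1a transcript that starts at 75002311, outside the exons of the GENCODE annotation. The windows of Adm and Bnip3 overlap 8 and 13 annotated exon bases of the same genes.

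The libraries held 51007366 to 107969888 counts on the used transcripts. Tet2 was the check of the labels. Its FPKM (read count scaled by transcript length and library total) was 9.15, 6.25 and 7.33 in WT baseline, and 9.24, 16.6 and 10.3 in the baseline libraries labelled Tet2-/-. After IR it was 9.34, 3.97 and 3.86 in WT, and 2.64, 3.20 and 1.76 in the libraries labelled Tet2-/-. At baseline the transcript was thus not lower in the libraries labelled Tet2-/-, while after IR these 3 libraries lay below the 3 WT libraries. Whether the allele leaves the transcript in place or libraries were exchanged was not tested, and this bears on every genotype difference, on the IR effect in that group and on the interaction. Directions follow the labels, and the Tet2-/- group means the libraries so labelled. Marker genes of the proximal tubule were high in every library, with a summed FPKM over 9 genes from 14398 to 51986, and those of the adrenal gland were near 0. Markers of other cells moved with the groups or with single libraries, as the plot of marker lists shows. The 7 adipocyte markers had a mean log2(FPKM + 0.1) of 1.71 and 3.35 in WT baseline replicates 2 and 3 and of 4.03 in Tet2-/- IR replicate 3, against -1.83 to -0.11 in the other 9 libraries. The summed FPKM of 7 neutrophil markers was 74.3 to 131 in Tet2-/- IR and 4.02 to 9.36 in WT IR, with Mpo near 0 in all groups. That of 5 injured tubule markers was 11524 to 24417 in Tet2-/- IR, 1477 to 7488 in WT IR and at most 451 at baseline. That of 5 podocyte markers was 42.9 to 87.8 in Tet2-/- IR against 3.23 to 24.9 in WT IR, and WT IR replicate 3 was lowest for both podocyte and endothelial markers. Adipocyte level was a covariate in alternative fits of the baseline genotype difference and of IR in WT. Fits without the libraries high in it were also run. Apart from these fits, the part of the markers in the differences below was not tested. In bulk tissue, fewer cells of a type and less RNA per cell cannot be told apart.

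**Figure D1:**
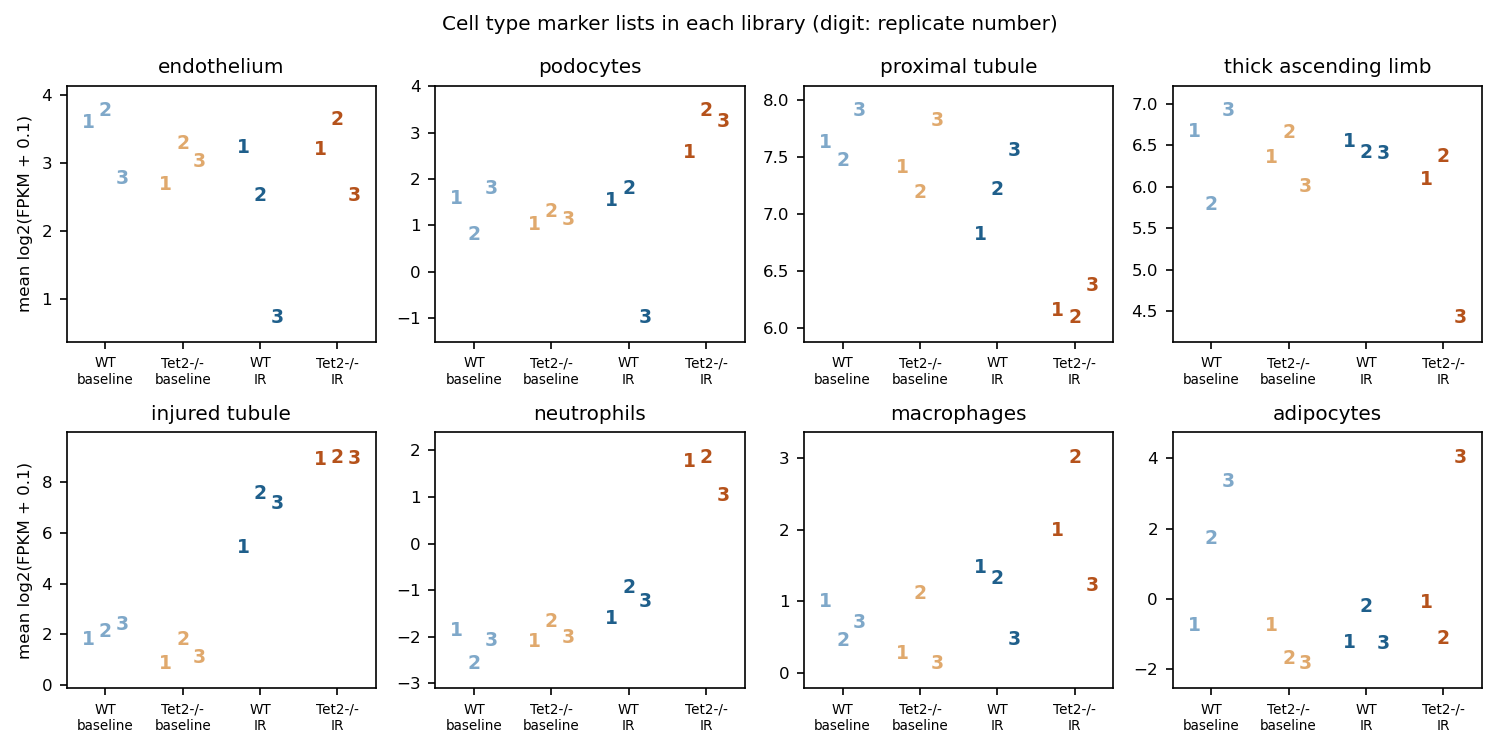
Mean log2(FPKM + 0.1) of the marker genes of 8 cell types on the y axis, by group on the x axis, with each digit standing for the library of that replicate number. Adipocyte markers stand high in WT baseline replicates 2 and 3 and Tet2-/- IR replicate 3, and neutrophil and injured tubule markers stand highest in the 3 Tet2-/- IR libraries.

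The targets spanned a wide range of levels. In WT baseline libraries the mean FPKM was 385 for Ndrg1, 59.9 for Vegfa, 56.2 for Bnip3, 19.0 for Egln1, 17.6 for Hif1a, 15.7 for Epas1, 5.11 for Adm, 2.92 for Egln3, 1.40 for Ankrd37 and 0.0423 for Epo. Neighbours in this order whose libraries overlapped were Vegfa and Bnip3, Egln1 and Hif1a, Hif1a and Epas1, and Adm and Egln3. After IR in the Tet2-/- group, Adm stood at a mean of 27.2, and its libraries overlapped those of Vegfa above it (33.5) and Hif1a below it (23.1), while Ndrg1 still led at 592. FPKM is per length, so these levels can be set side by side between genes.

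**Figure D2:**
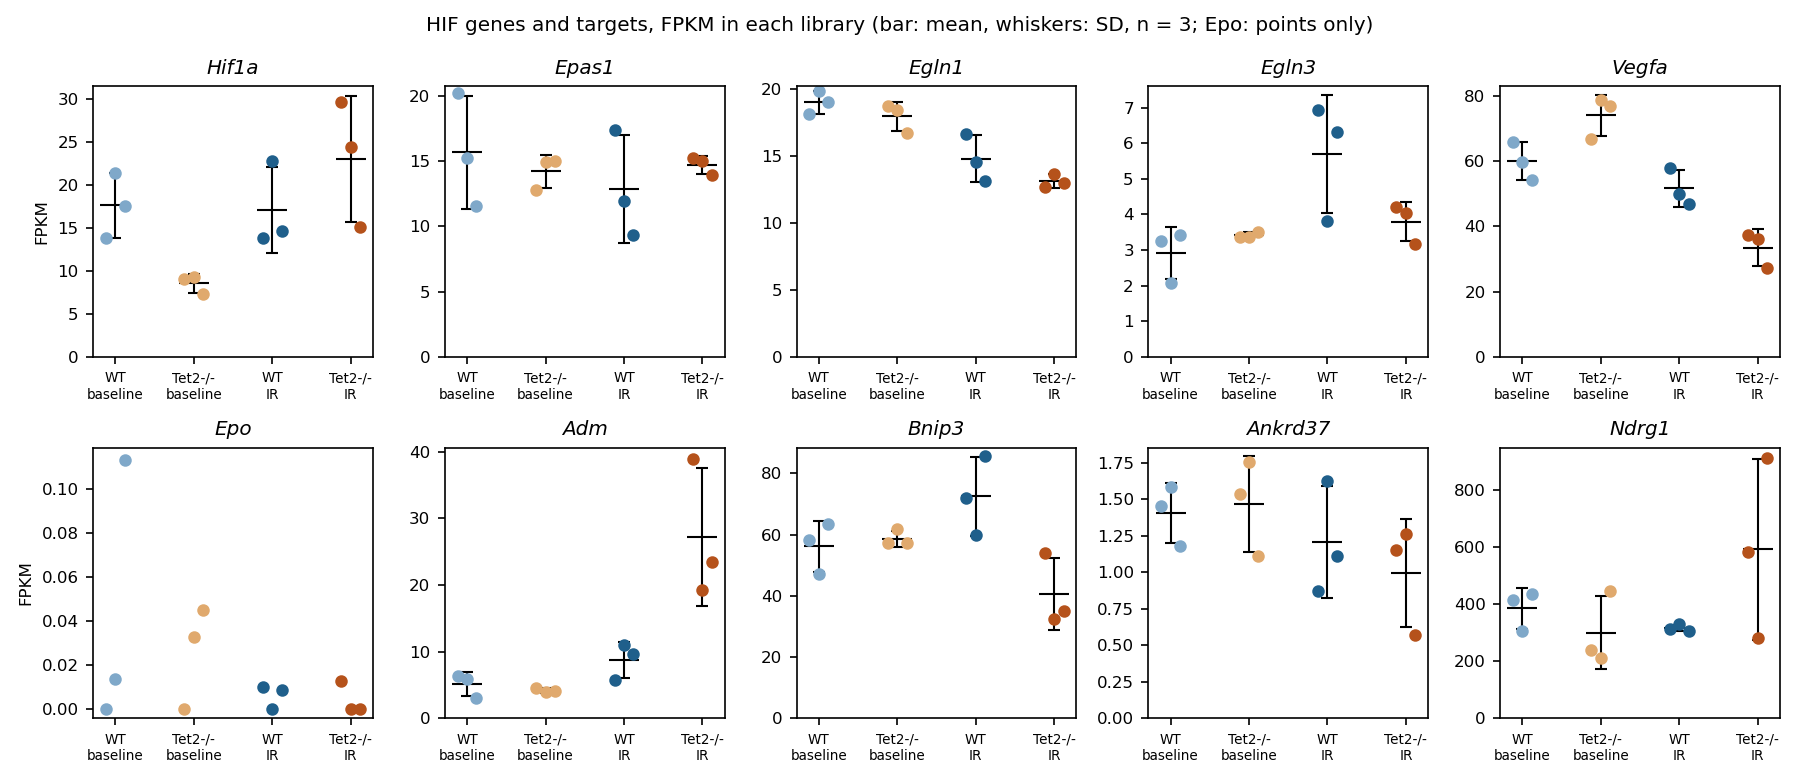
FPKM on the y axis of each gene in the 12 libraries, by group on the x axis, with points for libraries, a bar for the mean and whiskers for the SD (n = 3), and points alone for Epo. Hif1a is low in the 3 Tet2-/- baseline libraries, Adm is high and Vegfa low in the 3 Tet2-/- IR libraries, and Egln3 is highest in WT IR replicates 1 and 3.

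IR in the libraries labelled Tet2-/- changed 5 of the 9 testable genes. Adm and Hif1a rose, and Vegfa, Bnip3 and Egln1 fell, at an adjusted p under 0.05 from edgeR's quasi-likelihood test. This comparison called 43.2% of all 16375 genes, 22.9% as higher and 20.3% as lower, so the members' count is close to the background. Adm and Hif1a as higher and Vegfa as lower also passed the study's fold change threshold, a log2 fold change beyond 1 in either direction, which 12.8% and 11.6% of all genes passed in these directions. IR in WT called none of the 9 genes at the adjusted p, against a background of 3.02%, and 2 of them, Egln1 and Egln3, had an unadjusted p under 0.05, as did 22.8% of all genes. DESeq2 called those 2 and 12.3% of all genes. With the replicate number as a block, Egln3 rose after IR in WT (log2 fold change 0.89, adjusted p = 0.0217), in a fit that called 9.26% of all genes. An effect past the threshold in one genotype and not in the other does not by itself differ between them, so the genotype by IR interaction was tested over all 12 libraries. It called 3 of the 9 genes, Hif1a and Adm with a higher IR effect in the libraries labelled Tet2-/- and Vegfa with a lower one, against a background of 9.19% (3.81% higher and 5.38% lower). DESeq2 called 5 members and 16.7% of all genes here. With the replicate number nested in genotype, Vegfa, Bnip3 and Egln3 were called lower and Hif1a higher, with Adm at an adjusted p of 0.0526, against a background of 12.7%.

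Between genotypes at baseline no member passed the adjusted p. The background was 0.0124%, 2 of 16108 genes. An unadjusted p under 0.05 was reached by 2 members, Hif1a and Vegfa, and by 1893 genes (11.8%). DESeq2 called 1 member, Hif1a, and 3.25% of all genes. After IR, 2 of the 9 genes differed between genotypes, Adm higher and Vegfa lower in the libraries labelled Tet2-/-, against a background of 9.67% (3.5% higher and 6.17% lower). These comparisons share libraries with each other, so their results are not independent. With 3 libraries against 3, an exact two-sided permutation test of a single gene cannot give a p below 0.1.

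**Figure D3:**
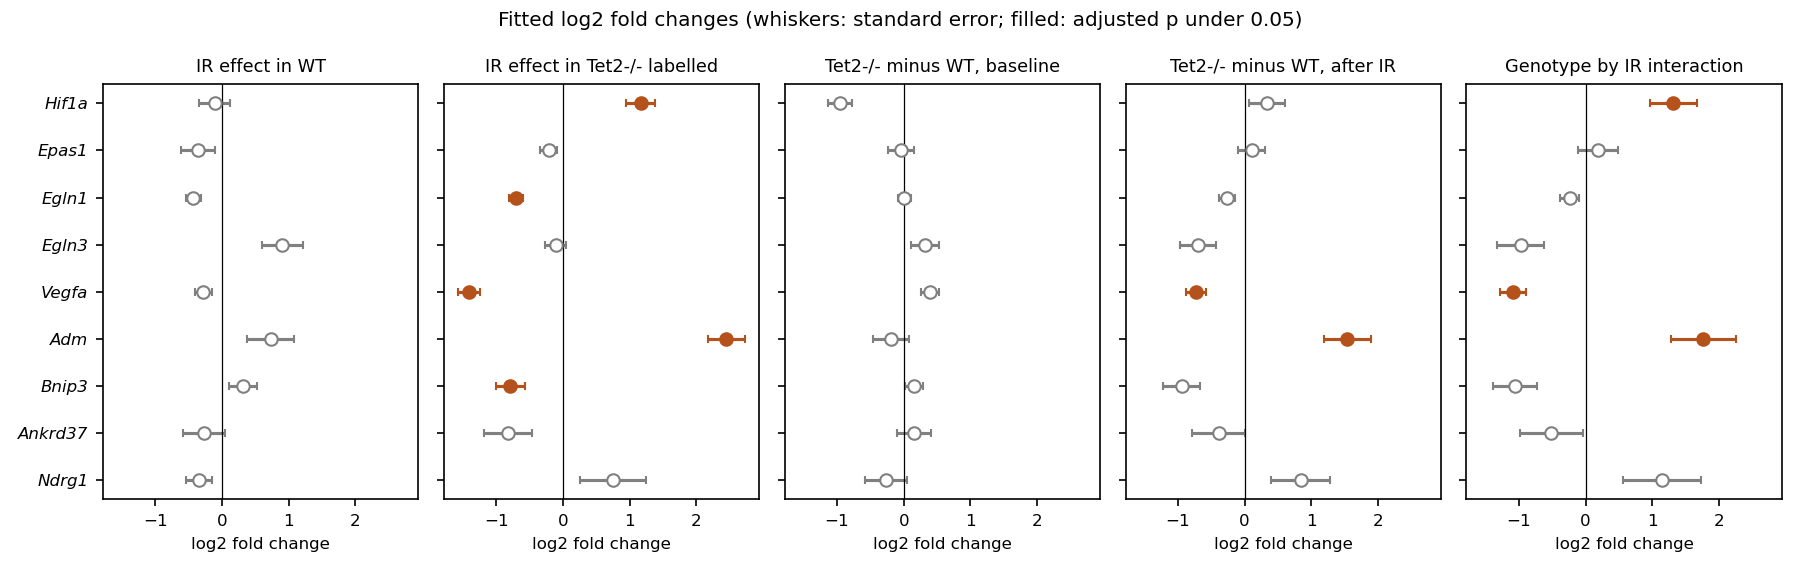
Fitted log2 fold change on the x axis of the 9 tested genes in each of 5 comparisons, with whiskers for the standard error and filled points for an adjusted p under 0.05 (edgeR). Filled points appear for 5 genes in the IR effect of the Tet2-/- group, for Vegfa and Adm after IR, and for Hif1a, Vegfa and Adm in the interaction.

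Hif1a (NM_001313919, chr12:75008854-75048541, plus strand) encodes the alpha subunit of HIF-1. Its FPKM was 13.9, 21.4 and 17.6 in WT baseline, 9.03, 9.34 and 7.31 in Tet2-/- baseline, 13.8, 22.8 and 14.6 in WT IR, and 29.6, 24.4 and 15.2 in Tet2-/- IR. The 3 Tet2-/- baseline libraries lay below all 9 others, while the WT groups and the Tet2-/- IR group overlapped. The baseline difference was a log2 fold change of -0.95 (standard error, SE, 0.18, adjusted p = 0.207), from a mean of 17.6 ± 3.77 (SD, n = 3) to 8.56 ± 1.09 (SD, n = 3). Hif1a rose after IR in the Tet2-/- group by a log2 fold change of 1.16 (SE 0.22, adjusted p = 0.00517), to a mean of 23.1 ± 7.33 (SD, n = 3). The value in WT was -0.11 (SE 0.23, adjusted p = 0.811). The interaction was 1.32 (SE 0.35, adjusted p = 0.0394). After IR the genotypes were at a log2 difference of 0.33 (SE 0.26, adjusted p = 0.444), with overlapping libraries. The 3 deposited Hif1a transcripts, fitted together with all transcripts, gave 1.12 to 1.15 for the IR effect in the Tet2-/- group. The IR effect in the Tet2-/- group passed the adjusted p under all 15 alternatives. The interaction passed under 12 of 22 and ended (adjusted p up to 0.104) when any of several single libraries was left out, WT baseline 2 or 3, any Tet2-/- baseline library, WT IR 1 or 3, or Tet2-/- IR 1 or 2. Without the 3 libraries of high adipocyte markers, which leaves WT baseline replicate 1 alone in its group, it was 1.13. Over all 22 alternatives the interaction ran from 1.07 to 1.54.

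Epas1 (NM_010137, chr17:87153204-87232750, plus strand) encodes HIF2A. Its FPKM was 20.2, 15.3 and 11.5 in WT baseline, 12.7, 14.9 and 15.0 in Tet2-/- baseline, 17.4, 11.9 and 9.30 in WT IR, and 15.2, 15.0 and 13.9 in Tet2-/- IR. All 4 groups overlapped, and both WT groups were lowest in replicate 3. The WT IR library with the lowest Epas1 was also the one with the lowest endothelial markers, at a mean log2(FPKM + 0.1) of 0.73 against 2.52 to 3.76 in the other libraries, and the part of this in the values was not tested. No comparison passed the adjusted p, and the log2 fold changes ran from -0.36 (SE 0.26, adjusted p = 0.450) for IR in WT to 0.19 (SE 0.30, adjusted p = 0.731) for the interaction. For IR in the Tet2-/- group the value was -0.21 (SE 0.13, adjusted p = 0.210), and 0.02 with libraries scaled by their totals alone. The ratio of Hif1a to Epas1 FPKM was 0.689, 1.41 and 1.52 in WT baseline, 0.709, 0.627 and 0.488 in Tet2-/- baseline, 0.796, 1.91 and 1.57 in WT IR and 1.95, 1.63 and 1.09 in Tet2-/- IR. Hif1a was thus the less abundant transcript of the pair in all 3 Tet2-/- baseline libraries and the more abundant in all 3 Tet2-/- IR libraries, with both WT groups divided.

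Egln1 (NM_053207, chr8:127432487-127473154, minus strand) encodes PHD2, the main oxygen-sensing hydroxylase. Its FPKM was 18.1, 19.8 and 19.0 in WT baseline, 18.7, 18.4 and 16.7 in Tet2-/- baseline, 16.6, 14.6 and 13.1 in WT IR, and 12.7, 13.7 and 13.0 in Tet2-/- IR. Every IR library lay below every baseline library. Egln1 fell after IR in the Tet2-/- group, with a log2 fold change of -0.71 (SE 0.11, adjusted p = 0.00177), and this held under all 15 alternatives. In WT the value was -0.43 (SE 0.11, adjusted p = 0.0804). DESeq2 (adjusted p = 0.0177) and a fit of all 12 libraries together (adjusted p = 0.0262, with 6.44% of all genes called) put the WT value past the threshold. The interaction was -0.24 (SE 0.14, adjusted p = 0.279), so a difference in the IR effect between genotypes was not shown.

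Egln3 (NM_028133, chr12:55279968-55304861, minus strand) encodes PHD3, a hydroxylase that is itself a known hypoxia-induced gene. Its FPKM was 3.25, 2.08 and 3.42 in WT baseline, 3.38, 3.36 and 3.52 in Tet2-/- baseline, 6.94, 3.82 and 6.33 in WT IR, and 4.20, 4.03 and 3.17 in Tet2-/- IR. The WT IR libraries lay above all WT baseline libraries, with replicate 2 within the range of the Tet2-/- IR group. The log2 fold change of IR was 0.90 in WT (SE 0.30, adjusted p = 0.147) and -0.11 in the Tet2-/- group (SE 0.16, adjusted p = 0.599). With the replicate number as a block the WT value was 0.89 (adjusted p = 0.0217), and DESeq2 also put it past the threshold. The value in the Tet2-/- group turned to 0.12 when libraries were scaled by their totals alone. The interaction was -0.97 (SE 0.35, adjusted p = 0.104), with an adjusted p of 0.0240 when the replicate number was nested in genotype and 0.0257 without WT IR replicate 2. After IR the genotypes were at -0.70 (SE 0.27, adjusted p = 0.138), which passed without WT IR replicate 2 (adjusted p = 0.0349).

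Vegfa (NM_001025250, chr17:46153943-46169326, minus strand) encodes the main growth factor for blood vessels, made in kidney by podocytes and tubule cells. Its FPKM was 65.9, 59.8 and 54.1 in WT baseline, 66.9, 78.5 and 76.7 in Tet2-/- baseline, 57.9, 49.8 and 46.9 in WT IR, and 37.3, 36.0 and 27.1 in Tet2-/- IR. The Tet2-/- group was the highest of the 4 at baseline and the lowest after IR, without overlap with any other group in either case. Vegfa fell after IR in the Tet2-/- group by a log2 fold change of -1.41 (SE 0.16, adjusted p = 0.000599), from a mean of 74.0 ± 6.27 (SD, n = 3) to 33.5 ± 5.55 (SD, n = 3). In WT the value was -0.28 (SE 0.13, adjusted p = 0.257). The interaction was -1.09 (SE 0.20, adjusted p = 0.00928) and had an adjusted p of at most 0.0258 when any single library was left out. Without the 3 libraries of high adipocyte markers, a fit added after the data were seen, it was -0.91. That fit leaves WT baseline replicate 1 alone in its group. Over all 22 alternatives the interaction ran from -1.19 to -0.91. At baseline the genotypes were at 0.40 (SE 0.13, adjusted p = 0.335). After IR, Vegfa was lower in the Tet2-/- group by a log2 fold change of -0.72 (SE 0.15, adjusted p = 0.0323), and this call ended on leaving out any 1 of the 6 libraries, with adjusted p from 0.0517 to 0.109. It also ended with libraries scaled by their totals alone (adjusted p = 0.0571) and with limma on log2(FPKM + 1) (adjusted p = 0.0534), fits that called 9.84% and 9.4% of all genes, and in all under 8 of 15 alternatives, with values from -0.82 to -0.62. The 9 deposited Vegfa transcripts overlap and share reads, and all gave a fall after IR in the Tet2-/- group, from -1.57 to -1.42. In the same comparison the 5 podocyte markers all rose and 6 of the 9 proximal tubule markers fell. Of all genes, 22.9% were called higher there and 20.3% lower. The part of these markers in the Vegfa values was not tested.

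Adm (NM_009627, chr7:117771183-117773333, plus strand) encodes adrenomedullin, a vasodilator peptide. Its FPKM was 6.35, 5.93 and 3.04 in WT baseline, 4.56, 3.91 and 4.08 in Tet2-/- baseline, 5.69, 10.99 and 9.63 in WT IR, and 38.8, 19.3 and 23.5 in Tet2-/- IR. The 3 Tet2-/- IR libraries were above all 9 others, and WT IR replicate 1 lay within the range of WT baseline. Adm rose after IR in the Tet2-/- group by a log2 fold change of 2.45 (SE 0.28, adjusted p = 0.000595), from a mean of 4.19 ± 0.337 (SD, n = 3) to 27.2 ± 10.3 (SD, n = 3), and passed under all 15 alternatives. In WT the value was 0.73 (SE 0.35, adjusted p = 0.273). After IR, Adm was higher in the Tet2-/- group by 1.54 (SE 0.35, adjusted p = 0.0404). With 1 library left out this call held only without Tet2-/- IR replicate 2, and the adjusted p reached 0.108 without WT IR replicate 1. The interaction was 1.77 (SE 0.49, adjusted p = 0.0447) and passed under 10 of 22 alternatives. It ended (adjusted p up to 0.104) without WT baseline 1 or 2, any Tet2-/- baseline library, WT IR 1 or 3, or Tet2-/- IR 1 or 3. The call also ended with the replicate number nested in genotype and with a replicate block common to both genotypes. Neutrophil and injured tubule markers were highest in the same 3 libraries, and their part in the Adm values was not tested.

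Bnip3 (NM_009760, chr7:146082519-146101189, minus strand) encodes a mitochondrial protein that marks mitochondria for removal. Its FPKM was 58.1, 47.1 and 63.4 in WT baseline, 57.2, 61.7 and 57.2 in Tet2-/- baseline, 71.9, 59.8 and 85.6 in WT IR, and 54.1, 32.4 and 35.1 in Tet2-/- IR. After IR all Tet2-/- libraries lay below all WT libraries. Bnip3 fell after IR in the Tet2-/- group, with a log2 fold change of -0.79 (SE 0.21, adjusted p = 0.0208). This call ended without Tet2-/- IR replicate 3 or any 1 Tet2-/- baseline library (adjusted p from 0.0513 to 0.0616), with libraries scaled by their totals alone (adjusted p = 0.0542) and with limma on log2(FPKM + 1) (adjusted p = 0.0525). In all it was lost under 6 of 15 alternatives. In WT the value was 0.31 (SE 0.21, adjusted p = 0.411). The interaction was -1.05 (SE 0.33, adjusted p = 0.0648) and passed under 7 of 22 alternatives, among them DESeq2 (adjusted p = 0.0147), the replicate number nested in genotype (0.0334), all deposited transcripts (0.0447) and leaving out WT IR replicate 2 (0.0400) or Tet2-/- IR replicate 1 (0.0268). After IR the genotypes were at -0.95 (SE 0.27, adjusted p = 0.0712). This difference passed under 3 of 15 alternatives, DESeq2 (adjusted p = 0.0109, in a fit that called 20.2% of all genes), all 12 libraries in a single fit (0.0183, with 18.5% called) and the replicate block (0.0482). Of the 9 proximal tubule markers, genes of a cell type rich in mitochondria, 6 fell after IR in the Tet2-/- group, against 20.3% of all genes. The part of these markers in the Bnip3 values was not tested.

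Ndrg1 (NM_008681, chr15:66760880-66801203, minus strand), a stress-responsive gene induced by hypoxia, was the most abundant member in every group. Its FPKM was 413, 305 and 437 in WT baseline, 241, 212 and 447 in Tet2-/- baseline, 314, 329 and 306 in WT IR, and 584, 279.8 and 912 in Tet2-/- IR. The Tet2-/- IR libraries spread more than 3-fold and overlapped all other groups through replicate 2. The log2 fold change of IR was 0.75 in the Tet2-/- group (SE 0.50, adjusted p = 0.258) and -0.35 in WT (SE 0.19, adjusted p = 0.327). The value in the Tet2-/- group was 0.24 without Tet2-/- IR replicate 3, 1.13 without Tet2-/- IR replicate 2 and 1.18 without Tet2-/- baseline replicate 3. Its highest library was the one with the highest adipocyte markers, Tet2-/- IR replicate 3. Ankrd37 (NM_001039562, chr8:47082262-47085204, minus strand), an ankyrin repeat gene used as a marker of HIF activity, had 1.45, 1.58 and 1.18 in WT baseline, 1.53, 1.75 and 1.11 in Tet2-/- baseline, 0.874, 1.63 and 1.11 in WT IR, and 1.15, 1.26 and 0.572 in Tet2-/- IR. All groups overlapped, and its largest log2 fold change was -0.82 (SE 0.36, adjusted p = 0.1003) for IR in the Tet2-/- group.

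Epo (NM_007942, chr5:137924248-137927044, minus strand), the hormone that drives red blood cell production, was at or near 0. Its counts were 0, 1 and 7.5 in WT baseline, 0, 3.5 and 3 in Tet2-/- baseline, 0.5, 0 and 0.5 in WT IR, and 1, 0 and 0 in Tet2-/- IR. Only WT baseline replicate 3 and Tet2-/- baseline replicate 2 exceeded 3 counts. The gene did not pass the filter on low counts. In the fits without that filter it was tested and was not called in any of the 5 comparisons. No fold is given, and a difference was not detectable at this depth.

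A list of 49 other HIF target genes was examined in the same fits. After IR in the Tet2-/- group 11 rose and 13 fell, with a median log2 fold change of -0.04 over the list and 0.04 over all genes. Over all genes this comparison called 43.2%, 22.9% as higher and 20.3% as lower, so the list's count is close to the background. In WT, 1 rose and 2 fell after IR, against a background of 3.02%. Pfkp, a phosphofructokinase of glycolysis, rose from a mean FPKM of 15.2 ± 2.43 to 31.2 ± 2.09 (SD, n = 3; log2 fold change 0.97, adjusted p = 0.0273). Aldoc, an aldolase of glycolysis, fell from 9.11 ± 0.888 to 4.19 ± 0.450 (SD, n = 3; log2 fold change -1.18, adjusted p = 0.00997). Igfbp3, which binds insulin-like growth factors, fell from 37.1 ± 15.2 to 9.13 ± 3.76 (SD, n = 3; log2 fold change -2.10, adjusted p = 0.0450). Of 17 alternatives, Igfbp3 passed under 5 (adjusted p up to 0.273), Pfkp under 11 (up to 0.284) and Aldoc under 14 (up to 0.259). Among these alternatives, the fit without the libraries of high adipocyte markers leaves WT baseline replicate 1 alone in its group. A call that ends there cannot be told apart from the loss of replicates. Over these alternatives the values ran from -2.55 to -1.83 for Igfbp3, from 0.84 to 1.06 for Pfkp and from -1.22 to -0.96 for Aldoc. The list's median for IR in WT was -0.07, against -0.03 over all genes.

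Between genotypes after IR, 2 of the 49 were higher and 3 were lower in the libraries labelled Tet2-/-, against 9.67% of all genes (3.5% higher and 6.17% lower), with a median of -0.03 against 0.04 over all genes. Edn1, the vasoconstrictor endothelin 1, had 0.659, 1.72 and 0.507 FPKM in WT IR and 6.23, 4.34 and 3.96 in Tet2-/- IR (log2 fold change 2.27, adjusted p = 0.0291). All 3 Tet2-/- IR libraries lay above all WT IR libraries, and the product acts on vessels, as that of Adm does. Lox, a collagen cross-linking enzyme, had means of 0.473 ± 0.219 and 1.95 ± 0.138 (SD, n = 3; log2 fold change 1.97, adjusted p = 0.0216). Ak4, a mitochondrial adenylate kinase, had 138, 77.9 and 86.3 FPKM in WT IR and 15.8, 21.2 and 12.5 in Tet2-/- IR (log2 fold change -2.72, adjusted p = 0.0102). Cxcl12, a chemokine, had means of 31.9 ± 13.0 and 5.40 ± 3.25 (SD, n = 3; log2 fold change -2.69, adjusted p = 0.0276). Car9, a carbonic anhydrase widely used as a hypoxia marker, had 21.3, 7.64 and 13.9 against 4.67, 2.92 and 2.02 (log2 fold change -2.26, adjusted p = 0.0276). All 3 lower genes had every Tet2-/- IR library below every WT IR library. The 5 genes, Edn1 among them, were named for their values in these same libraries, so this separation adds no support. The share of all genes so separated was not computed. Over 15 alternatives the values ran from 1.60 to 2.92 for Edn1 and from 1.01 to 2.17 for Lox. They ran from -2.90 to -2.45 for Ak4, from -3.05 to -2.31 for Cxcl12 and from -2.65 to -1.81 for Car9. Of these 5 genes, Ak4 alone passed under all 15 alternatives. Leaving out WT IR replicate 1 or Tet2-/- IR replicate 1 or 2 ended the calls of the other 4, as did leaving out Tet2-/- IR replicate 3 for Edn1, Lox and Car9 and WT IR replicate 3 for Edn1, Cxcl12 and Car9, with an adjusted p of up to 0.1004 for Edn1, 0.0815 for Car9, 0.0805 for Cxcl12 and 0.0649 for Lox. The interaction called 2 of the 49 higher (Lox and Hk2) and 2 lower (Ak4 and Cxcl12), against a background of 9.19%. Over the alternatives the interaction ran from -3.06 to -2.45 for Ak4, from -2.89 to -1.76 for Cxcl12, from 1.34 to 2.94 for Lox and from 1.20 to 4.50 for Hk2.

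**Figure D4:**
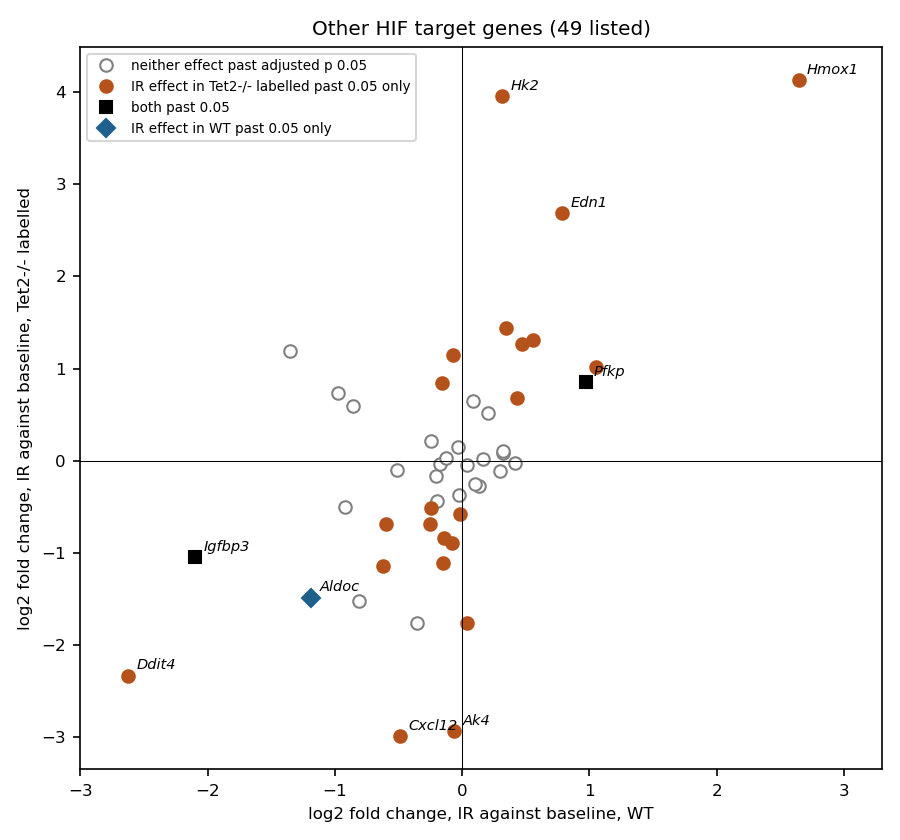
Log2 fold change of IR in WT (x axis) and in the libraries labelled Tet2-/- (y axis) for the 49 other HIF target genes, with filled symbols for an adjusted p under 0.05 in either (edgeR). On the y axis 22 genes lie above 0 and 27 below, with 11 called higher and 13 called lower, and the axes share no libraries.

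Of 16 regulators of the oxygen-sensing machinery, 2 rose (Arnt2 and Hif1an) and 2 fell (Siah2 and Cited2) after IR in the Tet2-/- group, against the background of 43.2% and with a list median of -0.06. Cited2 passed under 8 of 15 alternatives (adjusted p up to 0.103). None of the 16 passed for IR in WT or between genotypes within a condition. The backgrounds were 3.02% for IR in WT, and 0.0124% at baseline and 9.67% after IR between genotypes. Siah2, a ubiquitin ligase for EGLN proteins, had means of 12.9 ± 1.19 and 7.10 ± 0.767 FPKM (SD, n = 3; log2 fold change -1.12, adjusted p = 0.000612). The interaction called 1 of the 16, Siah2 (-0.83, adjusted p = 0.0265), against a background of 9.19%. That call held under 13 of 22 alternatives. Of 8 receptors for VEGF, adrenomedullin and erythropoietin, 1 was called higher and 1 lower after IR in the Tet2-/- group, against the same background of 43.2%. Nrp1, a VEGF co-receptor, rose from 7.02 ± 0.534 to 17.4 ± 3.85 FPKM (SD, n = 3). Ramp3, part of an adrenomedullin receptor, fell from 16.1 ± 1.81 to 8.56 ± 2.78 (SD, n = 3). Nrp1 was also called in the interaction (1.11, adjusted p = 0.0210), under 19 of 22 alternatives. The genes of this paragraph and Hk2 were named after their values were seen.

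Across the 12 libraries, the genes most like each member were sought by the root mean square difference of log2(FPKM + 0.1) centred on each gene's mean, over 12213 genes whose mean FPKM was 1 or more. Among the 2 closest were Slc4a7 and Prkaa1 for Hif1a (0.165 and 0.203), Dnajc18 and Dand5 for Egln1 (0.0888 and 0.0972), Dhrs11 and Neurl4 for Vegfa (0.137 and 0.156), and Lonp2 for Bnip3 (0.160). For Egln3 they were Decr1 and Slc25a17 (0.210 and 0.222), and for Adm Actn1 and Tinagl1 (0.273 and 0.280). For Epas1 they were Mir7092 and Inpp4a (0.167 and 0.174), for Ankrd37 1700030K09Rik and Mir6988 (0.214 and 0.217), and for Ndrg1 Atp6v1b2 and Jam3 (0.321 and 0.327). Small values mean a like pattern, and members with little variation have near neighbours by this measure. No member was among the 2 nearest neighbours of another.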

How the data were processed

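RNA-seq libraries of 12 mouse kidneys were analysed in 4 groups of 3 taken from the labels. Per the labels and the study's methods, the authors used STAR for alignment, with mm9 as genome, and HOMER for counting over RefSeq transcripts. The deposited estimated counts are raw and change by steps of 0.5 (38.7% are fractional), so they were rounded. The authors also deposited FPKM, which scales the count by transcript length and library total, and levels are given in it. Totals ran from 51007366 to 107969888 counts per library. The design had assumed that counts might not be whole, and no column was left unmapped.

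Each comparison used its own 6 libraries and the interaction all 12, with edgeR 4.0.16 in R 4.3.3 (TMM, its low-count filter, quasi-likelihood F test, Benjamini-Hochberg over all genes tested). Calls needed an adjusted p under 0.05, and the study's fold change threshold, an absolute log2 fold change over 1, is given where named. Standard errors are those of the fitted log2 fold change. Nothing but the replicate number ties libraries, and each is a separate mouse in the study's text. Same-numbered baseline and IR libraries of 1 genotype deviated together from their group means (correlations 0.345 to 0.349 in WT and 0.120 to 0.350 in the Tet2-/- group), so pairing is taken from these correlations only. Same-numbered libraries of the 2 genotypes gave -0.175, -0.150 and 0.0535 at baseline and -0.00115, 0.206 and 0.302 after IR. The values after IR in part reach those of the Tet2-/- group, so pairing there was neither shown nor excluded. Alternatives were DESeq2 1.42.0, library sizes alone, no filter, a mean FPKM of at least 1, all 12 libraries in a single fit, the replicate block, limma 3.58.1 with log2(FPKM + 1) or log2(FPKM + 0.1), all deposited transcripts, an adipocyte covariate and each library left out. The fits without the 3 libraries of high adipocyte markers and with the replicate number nested in genotype were chosen after seeing the data. The former leaves WT baseline replicate 1 alone in its group wherever that group enters.

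The members and the 16 other gene lists were chosen with earlier results of these data known. Named from the lists were up to 5 genes per direction past the adjusted p with the largest fold change in the IR effect in WT and in the genotype difference after IR, and the 2 nearest genes by pattern. Promoter windows were read from the mm9 genome, and transcript coordinates are those of the files. Tests were tried on simulated data. The unit of every test was the library. Some genes are not reported here, and the target list is counted without them.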

Additional observations from a re-analysis of the deposited data

Results flagged for a closer look

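The IR effect differed between genotypes by the interaction test of edgeR (adjusted p under 0.05, which 9.19% of all genes passed) for 3 members and for 6 further genes of the HIF lists and Tet2. Among the members the interaction was a log2 fold change of 1.32 for Hif1a, -1.09 for Vegfa and 1.77 for Adm. Among the other targets it was 3.67 for Hk2, 2.59 for Lox, -2.46 for Cxcl12 and -2.83 for Ak4. Hk2 was low, with mean FPKM of 0.316 in WT baseline, 0.091 in Tet2-/- baseline, 0.417 in WT IR and 1.74 in Tet2-/- IR. Hk2 did not enter the fit that required a mean FPKM of at least 1. Nrp1, a VEGF co-receptor, had 1.11, and Siah2, a ubiquitin ligase of the pathway, had -0.83. Tet2 itself had -2.00, from a baseline level that was higher in the libraries labelled Tet2-/- and an IR level that was lower. Of 22 alternatives, these calls ended under 12 for Adm, 10 for Hif1a, 10 for Lox, 9 for Siah2, 8 for Cxcl12, 7 for Tet2, 3 for Nrp1, 1 for Ak4 and 1 for Vegfa, and under 4 of 21 for Hk2. Among these alternatives is the fit without the 3 libraries of high adipocyte markers, on 9 of the 12 libraries. It leaves WT baseline replicate 1 alone in its group, so a call that ends there cannot be told apart from the loss of replicates. All of these genes kept their sign under every alternative run. The values ran from 1.41 to 2.10 for Adm, from 1.07 to 1.54 for Hif1a, from -1.19 to -0.91 for Vegfa, from -3.06 to -2.45 for Ak4, from 0.92 to 1.26 for Nrp1 and from -0.95 to -0.61 for Siah2. They ranged more widely for Hk2 (1.20 to 4.50), Lox (1.34 to 2.94), Cxcl12 (-2.89 to -1.76) and Tet2 (-2.22 to -1.43). Groups of 3 are too small for a test of a single library that stands apart.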

How the results depend on the processing

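Of 774 values of member results under the alternatives, 690 kept their direction and side of the threshold, 43 were no longer past it, 19 newly passed and 22 reversed, and the causes were not tested. The values of Adm, Hif1a, Vegfa and Egln1 for IR in the libraries labelled Tet2-/- kept direction and call under all alternatives run. DESeq2 called 1 member and 524 genes (3.25%) at baseline, 3 members and 3276 genes (20.2%) between genotypes after IR, 2 members and 1972 genes (12.3%) for IR in WT, and 5 members and 2805 genes (16.7%) in the interaction. All 12 libraries in a single fit gave 3 members and 3093 genes (18.5%) between genotypes after IR, and 1 member and 1079 genes (6.44%) for IR in WT. All deposited transcripts gave 4 transcripts called at baseline, 2560 between genotypes after IR, 10912 for IR in the Tet2-/- group and 2527 in the interaction. Between genotypes after IR, library sizes alone and limma on log2(FPKM + 1) each called 1 member, Adm and not Vegfa, with 9.84% and 9.4% of all genes. The fit without the 3 libraries of high adipocyte markers (chosen after seeing the data) leaves WT baseline replicate 1 alone in its group. Its numbers of calls for IR in WT and in the interaction are therefore not given. Tet2-/- IR replicate 3 is the only 1 of these 3 in the comparisons of genotypes after IR and of IR in the Tet2-/- group, so there this is the fit without that library, counted once (0 members and 854 genes between genotypes after IR). The adipocyte covariate left 1 gene at baseline and 0 for IR in WT.

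The replicate block gave 4 genes at baseline, and 1 member and 1486 genes for IR in WT. For genotypes after IR, same-numbered libraries had correlations of -0.00115, 0.206 and 0.302. There the block moved Adm to an adjusted p of 0.0757 and Bnip3 to 0.0482. In the interaction a block common to both genotypes gave Adm 0.0636 and Bnip3 0.0415. The pairing changed no member's call for IR in the Tet2-/- group.

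With 1 library left out, members called ranged from 0 to 0 at baseline, 0 to 1 between genotypes after IR, 0 to 0 for IR in WT, 4 to 5 for IR in the Tet2-/- group and 1 to 5 in the interaction. Genes called ranged from 2 to 9, 336 to 1199, 88 to 703, 4761 to 7486 and 701 to 2062 in the same order. Signs turned for values near 0. At baseline Egln1 was -0.061 with library sizes alone, -0.0068 at a mean FPKM of at least 1, -0.021 with 12 libraries, -0.078 and -0.082 with limma at pseudocounts of 1 and 0.1, and -0.031 to 0.051 with 1 library left out. With 1 left out, Epas1 ran from -0.22 to 0.17 at baseline, from -0.043 to 0.36 between genotypes after IR and from -0.041 to 0.43 in the interaction. For IR in WT, Hif1a was 0.22 with the adipocyte covariate and without the 3 libraries, and ran from -0.31 to 0.067 with 1 left out. For IR in the Tet2-/- group, library sizes alone, limma on log2(FPKM + 1) and limma on log2(FPKM + 0.1) gave 0.020, 0.048 and 0.051 for Epas1 and 0.12, 0.11 and 0.14 for Egln3.

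Library sizes alone moved the median log2 fold change of all genes from 0.04 to 0.27 for IR in the Tet2-/- group, from 0.04 to 0.14 between genotypes after IR and from 0.10 to 0.24 in the interaction. The genes called higher and lower went from 3752 and 3316 to 5286 and 2304, from 568 and 1000 to 804 and 791, and from 638 and 901 to 1137 and 703. Epo had counts of at most 7.5 in any library.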
